A study of Mus musculus with 46 samples.

Results

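The comparison asked whether the response of the mouse gut wall to long-term metformin differed between the proximal, middle and distal small intestine and the colon. It used 24 of the 46 samples of the study: every bulk RNA-seq library of the 4-week experiment that came from control or metformin animals, with 3 libraries in each of the 8 groups. All were from male C57BL/6J mice, a standard inbred laboratory strain. The metformin groups drank water holding 3 mg/mL of the drug for 4 weeks, and the control groups carry the label Control with no agent named. The labels give no age, do not say whether the 4 segments came from the same animals, and call the material intestinal tissue without saying whether muscle was removed. The study also holds 12 libraries of the related compound imeglimin from the same segments. They entered the fit to estimate the spread between libraries, and also took part in the gene filter and the scaling. Imeglimin effects are not described here.

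Metformin is a biguanide taken by mouth for type 2 diabetes. It accumulates in the intestinal wall, slows the first complex of the mitochondrial respiratory chain, and is known to raise glucose use by the gut and the release of the stress hormone GDF15. The segments it passes do different work. The proximal small intestine absorbs iron, folate and most nutrients, the distal small intestine recovers bile salts, and the colon absorbs water and salt and burns short-chain fatty acids, so that the same drug meets a different cell machinery in each.

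Each library held between 31712498 and 47324301 counts, and 20053 genes were tested. The segments carried the markers of their position: the mean log2 CPM (read counts scaled by library size) of a list of proximal small intestine genes was 8.12 to 8.15 in proximal controls and -1.68 to -0.377 in colon controls, and that of colon genes was 6.66 to 6.76 in colon controls and at most 0.231 in the controls of the small intestine. Markers of several other cell types differed between treated and control libraries. Smooth muscle markers, 20 genes, averaged 6.23 to 6.44 in proximal controls against 5.49 to 5.96 with metformin, 6.67 to 7.05 against 5.87 to 6.58 in the distal segment and 7.52 to 7.60 against 7.06 to 7.19 in the colon, with no overlap in any of these 3, and overlapped in the middle segment (6.30 to 6.84 against 6.54 to 6.58). Of those 20 genes, 4 were called lower in the proximal segment, 14 in the distal (3 without distal metformin replicate 3) and 1 in the colon. Paneth cell markers, 11 genes of the antimicrobial crypt cells, were lower without overlap in the proximal (6.98 to 7.91 against 5.98 to 6.38) and distal segments (7.92 to 9.65 against 7.15 to 7.40). Of these 0 were called in the proximal segment, where 9 had an unadjusted p under 0.05 by edgeR's test. In the distal segment 9 were called lower. That count was 1 without distal metformin replicate 3 and 1 with the smooth muscle score as a covariate. Fibroblast markers, 20 genes, were lower without overlap in the same 3 segments as smooth muscle, with 10 called lower in the distal segment (3 without distal metformin replicate 3) and 3 in the colon. In the proximal segment the B and plasma cell (2.95 to 3.19 against 1.82 to 2.43), T and NK cell (3.08 to 3.28 against 2.53 to 2.93) and macrophage lists (3.80 to 3.96 against 3.31 to 3.40) were lower without overlap, with 0, 0 and 1 gene called. Adipocyte markers were higher without overlap in the middle segment (-0.357 to 3.18 against 3.80 to 4.41), with 1 of 10 genes called. The smooth muscle and the B and plasma cell scores were tried as covariates. The smooth muscle score itself separated treated from control libraries in 3 segments, and the B and plasma cell score in the proximal segment. A covariate so tied to treatment can also take up drug effect. Calls lost with it therefore do not measure the part of those cells. The part of any of these cells in the results was not tested. In bulk tissue, fewer cells of a type and less RNA per cell cannot be told apart. A single library stood out: pancreatic acinar genes averaged 10.1 in colon control replicate 3, while the other colon controls and the colon metformin libraries were no higher than 0.626. All 7 of these pancreatic genes that were measured were called lower with metformin in the colon, a result that rests on that library, and they are not described further.

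**Figure D1:**
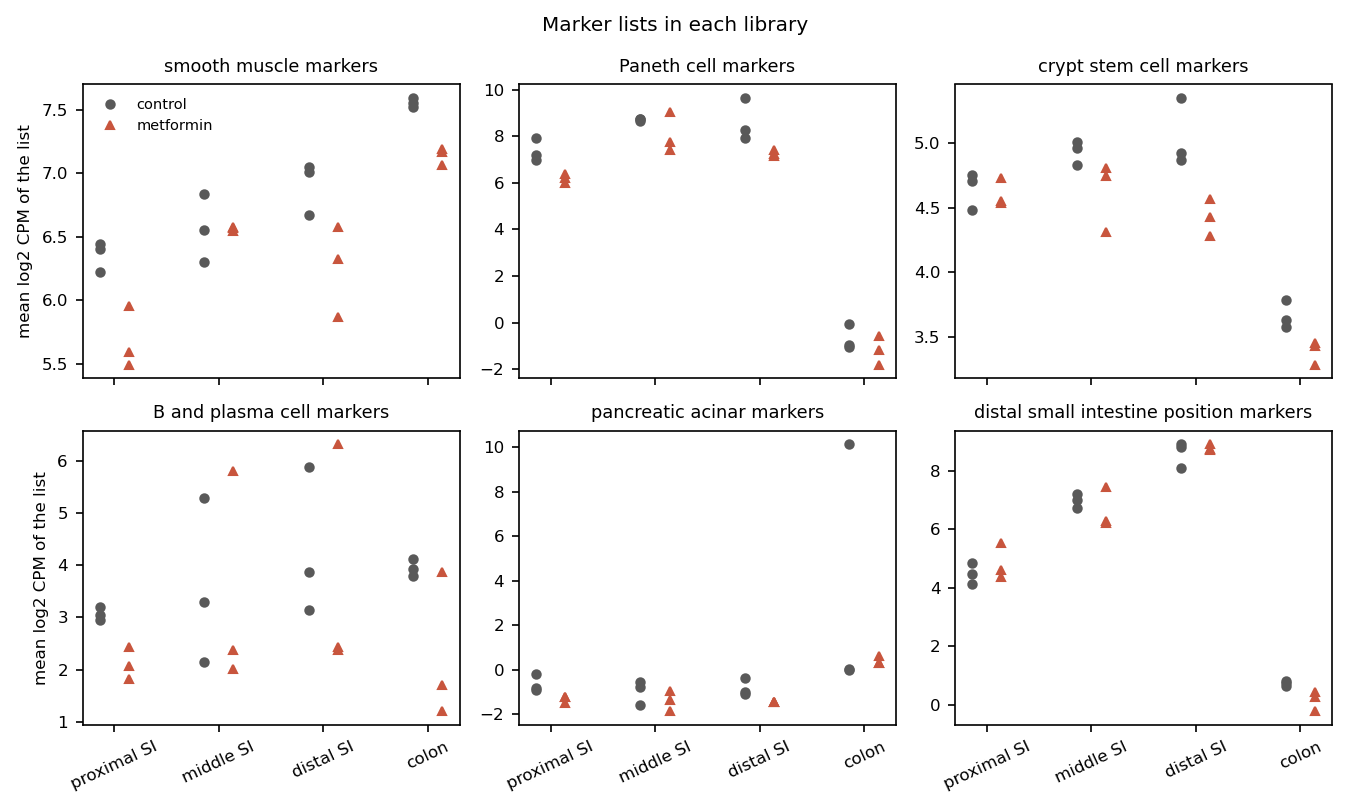
Mean log2 CPM of 6 marker lists (vertical axes) in each control (grey circle) and metformin (red triangle) library of the 4 segments (horizontal axes). Smooth muscle markers are lower with metformin in 3 segments without overlap, and 1 colon control library stands at 10.1 for pancreatic genes.

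The metformin effect on a gene is its log2 fold change, metformin against control, within 1 segment. A gene is called at an adjusted p under 0.05 from edgeR's quasi-likelihood test. The number of genes called was similar in the proximal and middle segments and larger further along. In the proximal small intestine 122 genes (0.608% of those tested) rose and 85 (0.424%) fell. The middle segment had 176 higher (0.878%) and 25 lower (0.125%), the distal segment 1418 higher (7.07%) and 724 lower (3.61%), and the colon 1961 higher (9.78%) and 865 lower (4.31%). Without 1 library these totals ran from 43 (without proximal metformin replicate 3) to 412 in the proximal segment, 75 (without middle control replicate 1) to 289 in the middle, 831 (without distal metformin replicate 3) to 2323 in the distal and 1745 (without colon metformin replicate 2) to 3148 in the colon. The median standard error was 0.21 in each segment. It is built from a spread per gene that all groups share, so it cannot show whether libraries scattered more in some segments. Which side held more calls in the proximal segment depended on the scaling: with RLE size factors 78 rose and 78 fell, and with TMM (trimmed mean of M-values) within each segment 76 rose and 86 fell. The latter scaling gave 1129 higher and 859 lower in the distal segment. With the smooth muscle score as a covariate, an alternative added after seeing the data, 23 genes were called in the proximal segment, 513 in the distal and 1937 in the colon, against 207, 2142 and 2826 without it.

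Calls in one segment and not in another do not show a difference, so the effects were tested against each other. For 809 genes (4.03% of those tested) the metformin effect differed between the 4 segments. For 543 of these the largest absolute effect was in the colon, for 190 in the distal segment, for 41 in the proximal and for 35 in the middle. Between neighbours, 1 gene (0.00499%) differed between the middle and the proximal segment. At an unadjusted p under 0.05 by edgeR there were 1047 of the 20053 tested. That is near the share of 0.05 that such a cutoff passes with no difference present. Between the distal and the middle segment 54 genes differed (0.269%), and between the colon and the distal segment 419 (2.09%). The distal segment differed from the proximal at 123 genes (0.613%), and the colon differed from the proximal at 752 (3.75%) and from the middle at 760 (3.79%). A trend test, which weighs the effects by the order of the segments, called 681 genes (3.4%) whose effect was higher toward the colon and 314 (1.57%) whose effect was lower. Of these, 279 (1.39%) and 147 (0.733%) had all 4 effects in strict order and are called gradient genes.

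A segment stands apart for a gene when its effect differed from each of the other 3 in the same direction. The colon stood apart at 126 genes (0.628%) upward and 55 (0.274%) downward. The distal segment stood apart at 18 (0.0898%) upward and 1 (0.00499%) downward, and the proximal and middle segments at 0 (0%) in each direction. At an unadjusted p under 0.05, 163 of 20053 genes stood apart in the proximal and 144 in the middle segment by edgeR. That cutoff takes no account of the number of genes tested. DESeq2 called 3 and 1. For 35 genes (0.175%) the effects differed and were called in opposite directions in 2 segments. Metformin raised 26 genes (0.13%) and lowered 1 (0.00499%) in all 4 segments. Genes whose effect differed numbered 471 without colon metformin replicate 2 and 512 without colon control replicate 3, and those apart in the colon 89 and 107. With the batch number of the labels as a block within each segment, the effect differed at 457 genes, the trend was called at 625, the colon stood apart at 102, the effects were called in opposite directions at 23, and 125 genes were called in the proximal segment.

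**Figure D2:**
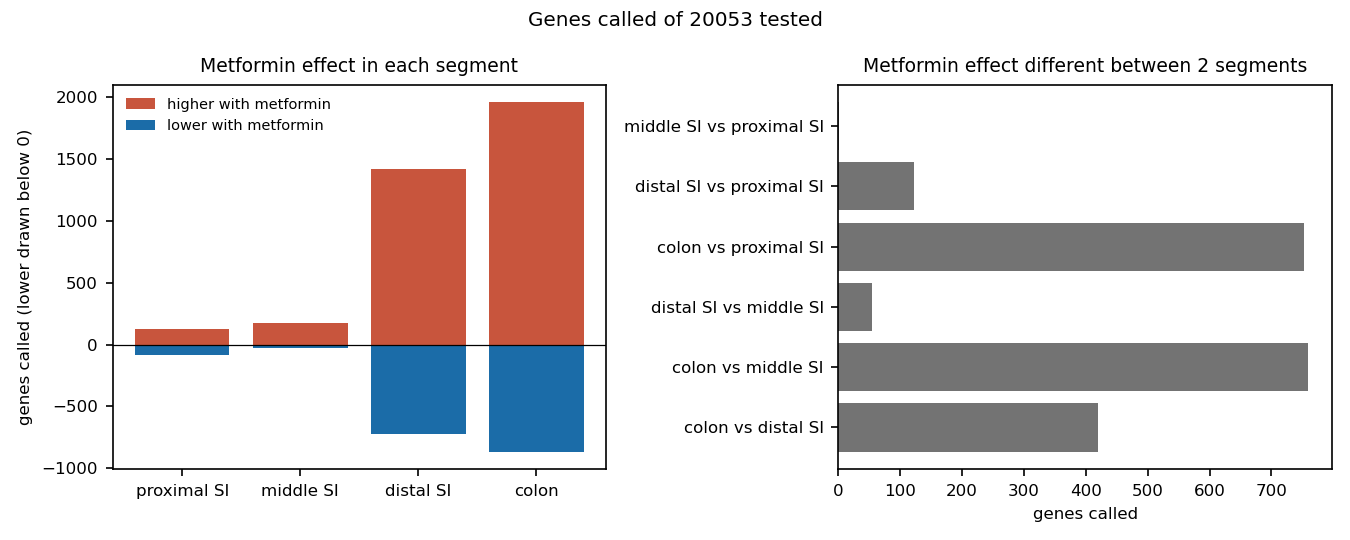
Left, number of genes called higher (red, above 0) or lower (blue, drawn below 0) with metformin in each segment (SI, small intestine). Right, number of genes whose metformin effect differed between 2 segments, of 20053 tested. The colon has 1961 genes called higher against 122 in the proximal segment, and 1 gene differed between the middle and proximal segments.

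The integrated stress response is the program that cells start when a kinase slows translation through eIF2. The transcription factor ATF4 then raises genes of amino acid supply, tRNA charging and, if the stress lasts, cell death. Of 28 measured members, none was called in the proximal or the middle segment, 9 rose in the distal segment and 12 in the colon, and none fell anywhere. Their median effects along the gut were -0.21, -0.27, 0.35 and 0.61, beside 0.00, 0.01, -0.01 and -0.04 over all genes tested. The effect differed between segments at 11 of the 28, or 39.3%, against 4.03% of all genes tested. Of all genes, 0.608% rose and 0.424% fell in the proximal segment and 0.878% and 0.125% in the middle. In the distal segment 7.07% rose and 3.61% fell, and in the colon 9.78% and 4.31%. Counts of list members throughout are to be read beside these shares. At an unadjusted p under 0.05, edgeR gave 1 member in the proximal segment and 3 in the middle, and DESeq2 called 0 there. With the smooth muscle score as a covariate, 5 members were called in the distal segment and 11 in the colon, and the effect differed at 11.

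The promoters of 4 genes called here are shown, because ATF4 with a C/EBP partner is known to bind a composite element whose letters are TGATGNAA, or TTNCATCA on the other strand. Each sequence is the RefSeq window on build GRCm38.p6 from 250 bases before to 50 after the annotated start, read 5′ to 3′ on the gene's strand, and capitals mark the match.
Aars, chr8:111033592-111033891, plus strand: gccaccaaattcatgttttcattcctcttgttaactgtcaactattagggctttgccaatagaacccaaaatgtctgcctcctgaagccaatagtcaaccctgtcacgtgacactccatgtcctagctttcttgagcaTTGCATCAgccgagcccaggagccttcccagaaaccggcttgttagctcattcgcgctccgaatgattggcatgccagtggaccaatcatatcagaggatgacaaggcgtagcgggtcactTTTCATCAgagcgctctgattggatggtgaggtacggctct
Gars, chr6:55037751-55038050, plus strand: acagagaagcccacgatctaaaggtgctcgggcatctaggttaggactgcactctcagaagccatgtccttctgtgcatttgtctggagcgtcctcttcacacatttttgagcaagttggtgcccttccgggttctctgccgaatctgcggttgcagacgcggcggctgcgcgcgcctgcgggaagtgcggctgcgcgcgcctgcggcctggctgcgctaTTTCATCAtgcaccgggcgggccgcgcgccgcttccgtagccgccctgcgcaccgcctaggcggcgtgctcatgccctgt
Vldlr, chr19:27216770-27217069, plus strand: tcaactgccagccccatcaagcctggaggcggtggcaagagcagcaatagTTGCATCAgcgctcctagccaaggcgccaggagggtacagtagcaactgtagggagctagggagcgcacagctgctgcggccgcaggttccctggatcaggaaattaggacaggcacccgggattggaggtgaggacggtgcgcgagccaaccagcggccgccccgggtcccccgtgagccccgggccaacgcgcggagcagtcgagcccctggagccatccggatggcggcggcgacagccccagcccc
Trib3, chr2:152344011-152344310, minus strand: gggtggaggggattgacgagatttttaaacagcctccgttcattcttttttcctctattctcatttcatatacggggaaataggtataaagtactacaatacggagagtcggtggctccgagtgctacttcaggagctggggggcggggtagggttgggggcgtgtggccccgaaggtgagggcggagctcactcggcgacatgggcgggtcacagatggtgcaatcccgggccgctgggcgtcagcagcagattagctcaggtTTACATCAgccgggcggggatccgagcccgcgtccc
Only windows that hold the element were shown, so a match in each was fixed by the choice. Aars held 2 matches and the other 3 windows 1 each. The first match lies at position -112 from the start in Aars, -30 in Gars, -200 in Vldlr and 14 in Trib3. Searched on both strands, the element was present in 8 of the 15 windows found for the 19 stress response and tRNA synthetase genes whose effect differed (53.3%), in 13 of 38 windows of all measured members of these lists (34.2%), in 426 of 14232 windows of all genes tested (2.99%) and in 3.97% of all 32851 windows of the table. Mthfd2 and Atf5, described next, are not among the 13. The stress response list was drawn up as ATF4 genes, so its share of matches is no independent evidence. The letters describe the window and show no binding.

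Mthfd2, the mitochondrial enzyme that makes one-carbon units from folate, had the widest contrast of the stress genes named here between the middle small intestine and the colon. Its level in the middle segment was 19.9, 14 and 17.1 CPM in controls and 6.95, 13.6 and 9.75 with metformin. In the colon it was 2.63, 2.53 and 4.73 in controls and 24.5, 27.7 and 25.9 with metformin. All metformin libraries thus lay below the controls in the middle segment, where the effect of -0.75 ± 0.24 was not called (adjusted p = 0.163), and above them in the colon, where it was 2.98 ± 0.24 or 7.86-fold (adjusted p = 1.33e-08). The colon effect exceeded the middle one by 3.73 ± 0.34 (adjusted p = 3.57e-07), and the colon stood apart from all 3 other segments. Mthfd2 also rose in the distal segment, from 15.5, 9.42 and 12.5 to 21.3, 24.6 and 21.9 CPM, an effect of 0.86 ± 0.24 (adjusted p = 0.0217) that was lost when any of 4 distal libraries was left out (adjusted p up to 0.0963).

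Atf5, a transcription factor of the mitochondrial stress response, was a gradient gene. It was 24.5, 35.1 and 37.7 CPM in proximal controls and 30.7, 23.1 and 16.5 with metformin, overlapping groups with an effect of -0.47 ± 0.23. The effect was -0.44 ± 0.23 in the middle segment and likewise not called. In the distal segment levels went from 24, 17.4 and 16.9 to 40.0, 45.2 and 57.5 CPM (effect 1.29 ± 0.23, adjusted p = 6.07e-04), and in the colon from 15.2, 15.8 and 16.2 to 69.4, 90.5 and 80.5 CPM (effect 2.35 ± 0.23, adjusted p = 1.20e-07). The slope was 1.02 ± 0.10 per segment (adjusted p = 1.04e-06). The first 2 effects differ by less than their errors, and their order turned when any of 5 proximal or middle libraries was left out.

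Trib3, a pseudokinase that restrains ATF4, had its lowest control levels in the colon and its largest effect there. Controls held 22.3, 38.5 and 34.6 CPM in the proximal and 0.244, 0.615 and 1.02 CPM in the colon. With metformin the values were 34.6, 33.2 and 27.1 and 4.21, 5.02 and 4.76. The proximal groups overlapped and the colon groups did not, with effects of -0.01 ± 0.36 and 2.88 ± 0.43 and a colon minus proximal difference of 2.89 ± 0.56 (adjusted p = 0.0034). In the distal segment the effect was 2.32 ± 0.37 (adjusted p = 2.19e-04).

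For a pair of genes with this pattern the larger effect was the distal one, though the difference from the colon was not called for either. Vldlr, a lipoprotein receptor that ATF4 is known to induce, went from 7.02, 5.13 and 4.68 to 27.7, 40.5 and 39.1 CPM in the distal segment, 6.36-fold, and from 27.5, 23.9 and 25.1 to 77.9, 80.9 and 79.8 CPM in the colon, 3.12-fold. Its effects were 2.67 ± 0.20 and 1.64 ± 0.20, a colon minus distal difference of -1.03 ± 0.28 (adjusted p = 0.0524). Its proximal and middle effects were 0.12 ± 0.22 and 0.18 ± 0.21, both uncalled. Ddit3, the death-related factor CHOP, was 11.8, 16.2 and 14.4 CPM in distal controls and 36.3, 45.7 and 39.2 with metformin. Its effects were 1.52 ± 0.16 in the distal segment and 1.24 ± 0.16 in the colon, against 0.09 ± 0.16 and 0.03 ± 0.16 in the proximal and middle segments. The distal and colon effects of Ddit3 differed by -0.28 ± 0.22, colon minus distal, which was not called (adjusted p = 0.696).

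Asns, which makes asparagine, rose from 37, 24 and 16.8 to 46.5, 63.4 and 62.7 CPM in the distal segment and from 12.8, 12.9 and 18.9 to 53.5, 74.8 and 52.1 in the colon. Its effects were -0.43 ± 0.27, -0.54 ± 0.27, 1.15 ± 0.27 and 2.02 ± 0.27 from proximal to colon, with an adjusted p for any difference of 1.63e-04. Chac1, which degrades glutathione, went from 0.488, 0.592 and 0.801 to 2.98, 4.02 and 4.09 CPM in the colon (effect 2.55 ± 0.60, adjusted p = 0.00517), while its proximal controls spread from 0.39 to 7.2 CPM around the metformin libraries. Its test for any difference gave an adjusted p of 0.0185, which became 0.0539 in a fit of the 24 control and metformin libraries alone and 0.0512 with the block within each segment.

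Gdf15 encodes the circulating stress hormone that acts on the hindbrain to lower appetite. Its level was highest in the colon: 6.14, 4.85 and 5.2 CPM in controls and 16.5, 18.1 and 17.3 with metformin, groups that did not overlap, an effect of 1.68 ± 0.36 (adjusted p = 0.0019). In the distal segment it went from 0.759, 0.644 and 0.913 to 2.12, 2.12 and 1.29 CPM (effect 1.26 ± 0.39, adjusted p = 0.0393), a call lost in 5 of 24 fits without 1 library (up to 0.128). In the proximal segment the effect was -0.51 ± 0.40 and in the middle 0.23 ± 0.41, neither called. The difference between segments passed narrowly (adjusted p = 0.0466) and was lost in 20 of the 24 fits that each left out 1 library, with an adjusted p up to 0.128. With the batch number as a block it was 0.0549, and 0.113 with the block within each segment. The rise of Gdf15 in the colon was kept in all 24.

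**Figure D3:**
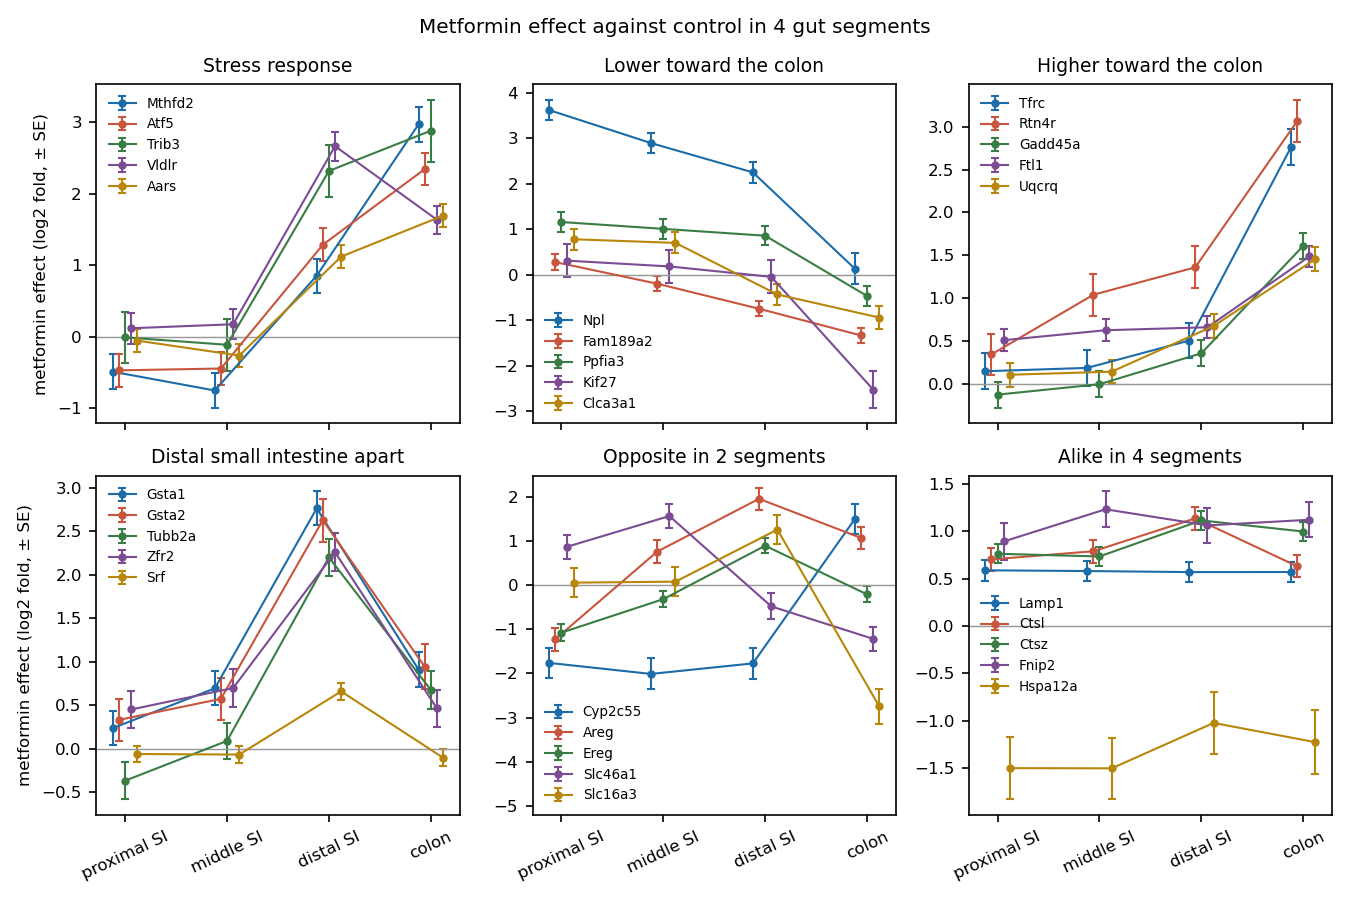
Metformin effect (log2 fold change with its standard error, vertical axes) by segment, proximal to colon (horizontal axes; SI, small intestine), for 30 genes in 6 panels, with a panel for each pattern in the text. Stress response genes lie near or below 0 in the proximal and middle segments and reach 2.98 in the colon, Npl runs from 3.62 to 0.13, and Lamp1 stays between 0.57 and 0.59.

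Aminoacyl-tRNA synthetases load each amino acid onto its tRNA, and those of the cytosol are part of the same program. Of the 38 listed, 20 were measured under the symbols of the deposited tables. In the proximal segment Qars was called higher, in the middle Mars lower, in the distal 4 higher (Aars, Gars, Qars and Sars) and in the colon 11 higher, or 6 without colon metformin replicate 2. The effect differed between segments at 8 of the 20 (40%). Aars, the alanyl enzyme, was 115, 83.5 and 97.5 CPM in middle controls and 66, 101 and 80.2 with metformin, and in the colon 59.8, 50.2 and 52.1 against 155, 195 and 175. The middle groups overlapped, the colon groups were separate, and the difference of the 2 effects was 1.96 ± 0.22 (adjusted p = 9.61e-06). Gars, the glycyl enzyme, went from 65.6, 70.1 and 67.8 to 132, 173 and 135 CPM in the colon. Its effects ran -0.26, -0.17, 0.48 and 1.11, with standard errors of 0.11. Mars, the methionyl enzyme, singled out after its values were seen, was called in both directions: -0.63 ± 0.16 in the middle segment (adjusted p = 0.0495, lost in 17 of 24 fits without 1 library, up to 0.279, and with the smooth muscle score or the block within each segment) and 0.87 ± 0.16 in the colon (adjusted p = 3.47e-04).

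The respiratory chain gave a broad, smaller shift. Complex I, which takes electrons from NADH and is the known target of biguanides, has its subunits encoded partly in the nucleus and partly on mitochondrial DNA. All 37 nuclear-encoded genes of the list were measured. Of these, 1 rose in the proximal segment (Ndufa6), none in the middle, 19 in the distal and all 37 in the colon, and none fell. At an unadjusted p under 0.05, edgeR gave 6 in the middle segment, and DESeq2 called 0. The median effects were 0.14, 0.12, 0.38 and 0.75, the trend was called upward at 28 of 37, and the effect differed between segments at 20 (54.1%). This last count was 7 without colon control replicate 3, 7 without colon metformin replicate 2, and 5 with the block within each segment. Complexes II to V gave similar counts, with 0, 1, 32 and 38 of 39 measured members called higher from proximal to colon and medians of 0.16, 0.17, 0.48 and 0.72, and a difference between segments at 12 (6 and 4 without those libraries in turn, 3 with the block). In contrast to these lists, none of the 13 mitochondrially encoded genes was called in any segment, and their medians were 0.22, 0.17, 0.09 and 0.13. At an unadjusted p under 0.05, edgeR gave 2, 1, 1 and 3 of them from proximal to colon, and DESeq2 called 0, 0, 1 and 1. The difference between the nuclear and the mitochondrial lists was not itself tested. Smooth muscle markers were lower in the distal segment and the colon, as given above. With their score as a covariate, 6 complex I genes were called in the distal segment and 36 in the colon, and 10 and 36 of complexes II to V. Without distal metformin replicate 3 the distal counts were 6 and 15.

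Single subunits show the size of the shift. Ndufb10, a complex I subunit, was 99, 96.5 and 89.4 CPM in colon controls and 178, 217 and 179 with metformin, an effect of 1.01 ± 0.11 (adjusted p = 2.14e-07). In the proximal segment it was 115, 113 and 111 against 132, 140.1 and 137 CPM, also without overlap but only 0.27 ± 0.11 and not called. Uqcrq, a complex III subunit and a gradient gene, had effects of 0.10 ± 0.14, 0.14 ± 0.14, 0.67 ± 0.14 and 1.46 ± 0.14. The first 2 of these differ by less than their errors, and the strict order was lost in 5 of 24 fits without 1 library. Its colon level went from 63.7, 70.8 and 59.3 to 162, 191 and 179 CPM, a 2.74-fold rise. Cox5b, of complex IV, rose from 200.5, 211 and 179 to 341, 404 and 374 CPM in the colon, and its colon effect exceeded the middle one by 0.83 ± 0.16 (adjusted p = 0.00251). Of 12 mitochondrial chaperone and protease genes, 5 rose in the distal segment (1 called without distal metformin replicate 3, and 0 with the smooth muscle score as a covariate), 8 rose and 1 fell in the colon (3 called in all without colon metformin replicate 2), and none was called further up.

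**Figure D4:**
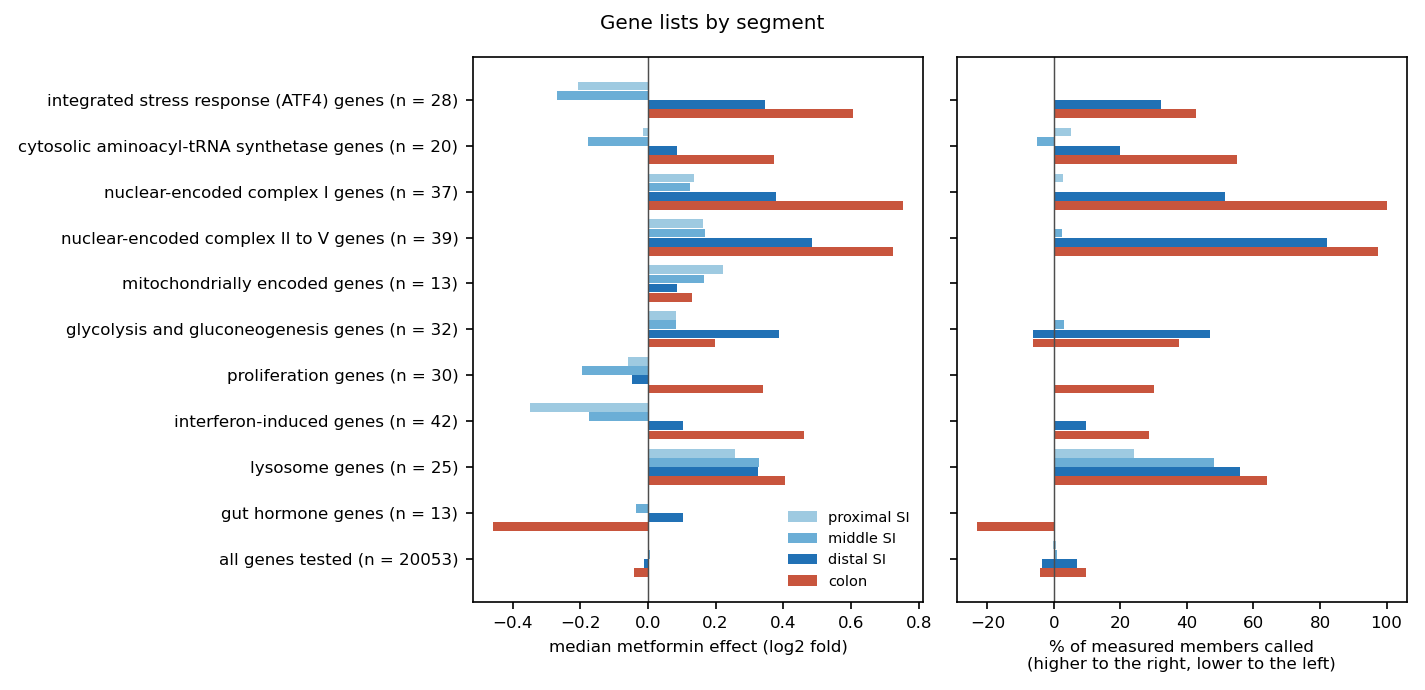
Left, median metformin effect (log2 fold change) of the measured members of 10 gene lists and of all genes tested, by segment (bar colour; SI, small intestine). Right, percent of measured members called higher (to the right of 0) or lower (to the left). All 37 nuclear-encoded complex I genes were called higher in the colon, and none of the 13 mitochondrially encoded genes in any segment.

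Among iron genes, the effect on Tfrc rose in order toward the colon. Tfrc encodes the transferrin receptor, through which cells take up iron. In the proximal segment it was 170.5, 154 and 148 CPM in controls and 148, 203 and 171 with metformin, overlapping groups. In the colon controls held 119, 134 and 118 CPM and metformin libraries 852, 821 and 841, so that the lowest treated library was far above the highest control. Its effects were 0.14 ± 0.21, 0.18 ± 0.21, 0.50 ± 0.21 and 2.76 ± 0.21, a 6.79-fold rise in the colon, and the colon minus proximal difference was 2.62 ± 0.29 (adjusted p = 9.14e-06). The colon stood apart in every fit that left out 1 library, whereas the strict order of the small intestinal effects was lost in 5 of 24.

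Ftl1, the light chain of the iron store ferritin, was higher in all 4 segments and most so in the colon. It rose from 745, 877 and 933 to 1057, 1179.6 and 1394 CPM in the proximal segment (effect 0.51 ± 0.13) and from 599, 667 and 624 to 1560.5, 1988 and 1748 CPM in the colon (effect 1.49 ± 0.13). The difference between these effects was 0.98 ± 0.18 (adjusted p = 0.00216). The proximal call was lost in 14 of 24 fits without 1 library. Ftl1 has near-identical pseudogene copies, so its counts are uncertain. Slc46a1, the intestinal folate carrier that also moves haem, ran the other way. It rose in the middle segment from 7.72, 7.69 and 10.7 to 29.7, 15 and 32.8 CPM (effect 1.57 ± 0.28, adjusted p = 0.0026) and fell in the colon from 23.4, 10.8 and 21.2 to 7.65, 8.08 and 8.15 CPM (effect -1.21 ± 0.28, adjusted p = 0.0033). Neither pair of groups overlapped. Over the 16 iron genes, 1, 2, 2 and 7 rose from proximal to colon, 1 fell in the colon (5 called there without colon control replicate 3), and the effect differed at 4 (25%): Fth1, Ftl1, Slc46a1 and Tfrc.

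Glucose use showed different shapes for different genes. Hkdc1, a hexokinase-like enzyme of the gut epithelium, was abundant in the small intestine and scarce in the colon. Proximal controls held 370.3, 350.3 and 358 CPM and metformin libraries 479.9, 451 and 476, while colon controls held 3.66, 4.54 and 3.97 and colon metformin libraries 24.4, 33.2 and 24.2. Groups did not overlap in any segment, but only the distal (0.94 ± 0.19) and colon (2.75 ± 0.20) effects were called, and the colon exceeded the middle segment by 2.37 ± 0.28 (adjusted p = 9.61e-06). Hk2, a muscle-type hexokinase, rose in the distal segment alone among the calls, from 113, 128 and 76.2 to 218, 229 and 283 CPM (effect 1.20 ± 0.23, adjusted p = 0.00109). Its colon level was high in both groups, 212, 219 and 221 against 256, 265 and 199 CPM. The difference of Hk2 between segments had an adjusted p of 0.0465 and was lost in 19 of 24 fits without 1 library, up to 0.143, and with the block within each segment (0.0617).

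Slc2a1, the glucose carrier GLUT1, rose in the distal segment from 19, 14.6 and 17.3 to 27.2, 40.6 and 33.6 CPM (effect 0.99 ± 0.15) and in the colon from 121, 112 and 124 to 200.3, 227 and 207 CPM (effect 0.83 ± 0.14). Its effects further up were 0.03 ± 0.15 and -0.01 ± 0.15, with an adjusted p for any difference of 0.00257. Slc16a3, the lactate exporter MCT4, was called in opposite directions in the last 2 segments. In the distal segment controls held 9.82, 27 and 14.9 CPM and metformin libraries 28.5, 41 and 54.7. In the colon controls held 3.61, 6.82 and 8.05 CPM and metformin libraries 1.11, 0.976 and 0.669. The colon minus distal difference was -4.01 ± 0.52 (adjusted p = 1.01e-04), although the distal call was lost without any of 3 distal libraries (adjusted p up to 0.126). Of 32 glycolysis and gluconeogenesis genes, 15 rose and 2 fell in the distal segment, 12 rose and 2 fell in the colon, 1 rose in the middle segment (Aldoa), and the effect differed at 10 (31.2%). Distal calls numbered 10 with the smooth muscle score as a covariate and 10 without distal metformin replicate 3.

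Further genes rose more steeply toward the colon. Rtn4r, the receptor through which Nogo halts axon growth, had effects of 0.34 ± 0.24, 1.04 ± 0.25, 1.36 ± 0.24 and 3.07 ± 0.25 in strict order in every fit that left out 1 library. Its colon level went from 0.695, 0.757 and 1.02 to 7.72, 6.91 and 6.22 CPM, 8.38-fold, with a slope of 0.85 ± 0.11 per segment (adjusted p = 3.08e-05). Gadd45a, a growth arrest and DNA damage gene, was 56.4, 59 and 59.3 CPM in proximal controls and 53.9, 51.2 and 54.6 with metformin, and 25.6, 25.2 and 27.5 against 75.8, 72 and 91.2 in the colon. Its slope was 0.56 ± 0.07 (adjusted p = 1.48e-05). Fyb2, an adaptor protein, had effects running from -1.21 ± 0.32 in the proximal segment, which was not called (adjusted p = 0.0629), to 1.84 ± 0.34 in the colon, with a slope of 1.04 ± 0.15. Its colon level was low, 0.488, 0.876 and 0.503 CPM in controls and 1.85, 2.63 and 2.17 with metformin.

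Among genes of metal and redox defence, Slc39a4, the zinc importer ZIP4, was a gradient gene in all fits that left out 1 library. It was 111, 128 and 105 CPM in proximal controls and 86.1, 77 and 74 with metformin, lower without overlap but uncalled (effect -0.54 ± 0.19), and 73.7, 85.2 and 76.9 against 167, 174 and 164 CPM in the colon (effect 1.10 ± 0.19, adjusted p = 1.40e-04). Mt1, a zinc-binding metallothionein, rose in the colon from 55.9, 56 and 65.2 to 167, 171 and 182 CPM (effect 1.55 ± 0.21), and its distal groups overlapped at 65.2, 50.4 and 50.3 and 49, 59.5 and 50.7 CPM. The colon minus distal difference was 1.61 ± 0.29 (adjusted p = 0.00224). Srxn1 and Txnrd1, antioxidant targets of NRF2, had colon effects of 0.98 ± 0.15 and 0.66 ± 0.10 against -0.17 ± 0.15 and 0.02 ± 0.10 in the proximal segment. Of 20 NRF2 genes 5 rose in the distal segment, 8 rose and 1 fell in the colon, and the effect differed at 2, Srxn1 and Txnrd1. The distal calls numbered 0 with the smooth muscle score as a covariate and 2 without distal metformin replicate 3.

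Fewer genes had effects that declined toward the colon. Npl, which breaks down sialic acid, had the largest decline among the genes named here, and was chosen after its values were seen because its colon level is under 1 CPM. It rose from 15.1, 26.8 and 20.02 to 272, 224 and 266 CPM in the proximal segment, 12.3-fold. The middle segment went from 22.4, 44.2 and 47.6 to 273, 277 and 299 CPM and the distal from 6.3, 7.46 and 6.68 to 32, 31.5 and 33.6. In the colon 0.845, 0.686 and 0.745 and 1.04, 0.617 and 0.866 CPM overlapped. The effects were thus 3.62 ± 0.22, 2.89 ± 0.22, 2.25 ± 0.23 and 0.13 ± 0.35, in this order in every fit without 1 library, with a slope of -1.11 ± 0.13 per segment (adjusted p = 6.60e-06).

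**Figure D5:**
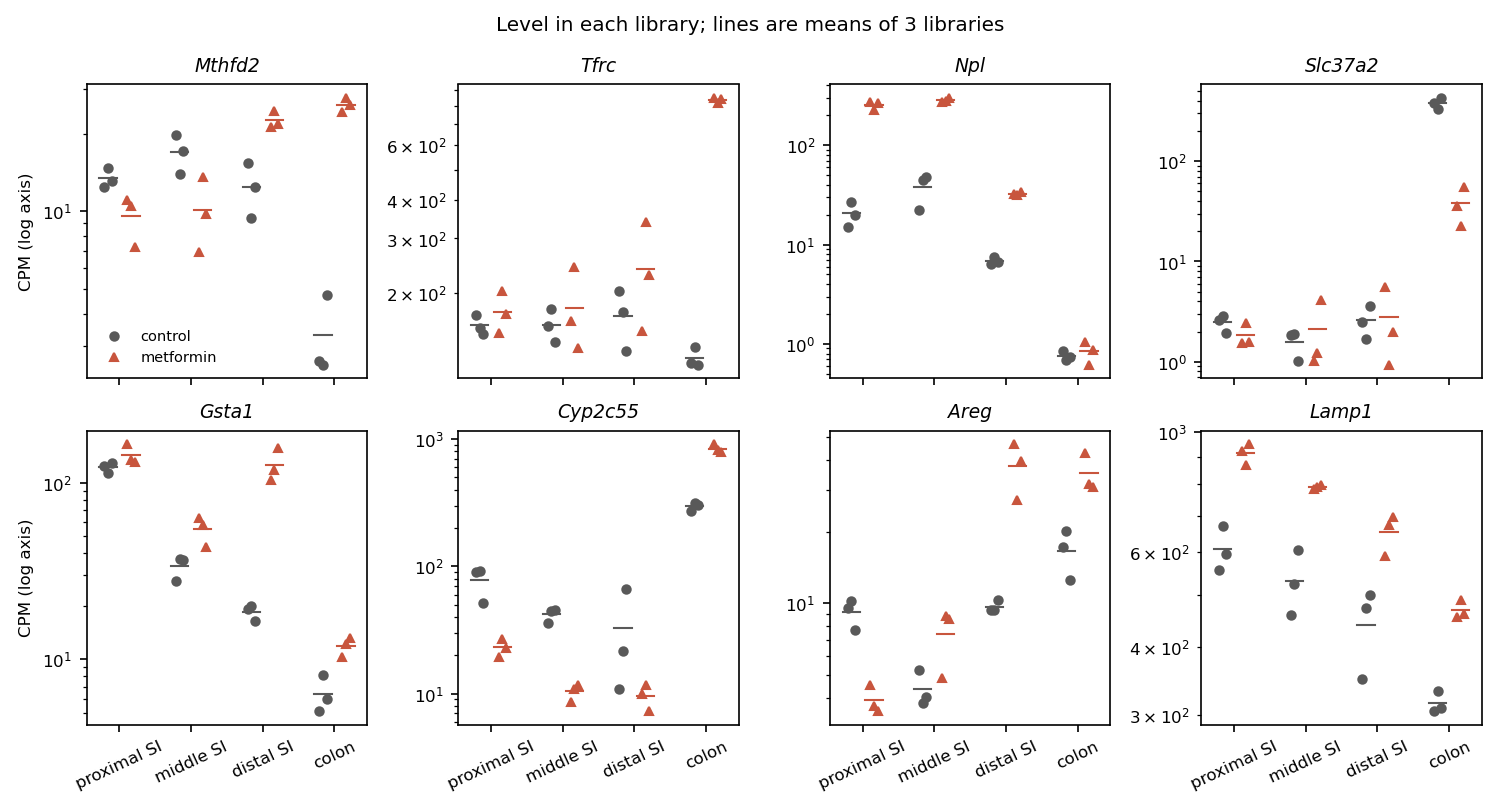
CPM on a logarithmic axis (vertical) in each control (grey circle) and metformin (red triangle) library of the 4 segments (horizontal; SI, small intestine) for 8 genes; lines are means of 3 libraries. Tfrc lies between 118 and 134 in colon controls and between 821 and 852 with metformin, and Npl separates in the small intestine and overlaps in the colon.

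Other declining genes had effects on both sides of 0, though none of those below was called on both sides. Their standing as gradient genes was lost in 4 of 24 fits without 1 library for Clca3a1. For Ppfia3, Kif27 and Ankrd37 it was lost in 3 each. Fam189a2 fell in the colon from 45.6, 48.5 and 50.6 to 19.5, 18.7 and 19.2 CPM (effect -1.34 ± 0.16, adjusted p = 1.80e-06) and in the distal segment by a smaller step (effect -0.75 ± 0.16). In the proximal segment its metformin libraries lay just above the controls (0.28 ± 0.17, not called), and its slope was -0.54 ± 0.07 (adjusted p = 6.26e-05). Ppfia3, a synaptic scaffold protein of the liprin family, rose in all 3 small intestinal segments, by 1.16 ± 0.22, 1.01 ± 0.22 and 0.86 ± 0.22, calls lost in 2, 3 and 3 of 24 fits without 1 library (up to 0.144). Its colon metformin libraries lay below the controls at 14.2, 11.8 and 13 against 14.7, 20.9 and 18.4 CPM, an effect of -0.47 ± 0.22 that was not called. Clca3a1, a secreted protein of the calcium-activated chloride channel regulator family, had effects of 0.78 ± 0.23, 0.70 ± 0.23, -0.44 ± 0.24 and -0.94 ± 0.25, of which the colon one was called and was lost without colon control replicate 1 (adjusted p = 0.0897). Kif27, a kinesin of cilia, and Ankrd37, a target of the hypoxia factor, fell in the colon, with effects of -2.53 ± 0.40 and -1.79 ± 0.35, and were not called elsewhere. Their colon levels went from 2.05, 3.72 and 2.74 to 0.809, 0.259 and 0.413 CPM and from 5.48, 5.73 and 7.04 to 1.69, 2.15 and 1.42 CPM.

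Several genes called in the colon had small or uncalled effects elsewhere. Dclre1a, a nuclease that repairs crosslinked DNA, had the smallest p of all genes for any difference (adjusted p = 2.18e-08). Its colon libraries read 14.3, 14.9 and 13.7 CPM in controls and 74.4, 60.7 and 104 with metformin, 5.57-fold. Its proximal, middle and distal effects were 0.32 ± 0.14, 0.15 ± 0.14 and 0.06 ± 0.14. Slc43a3, a purine base carrier, rose from 27.4, 26.4 and 26.1 to 101, 123 and 128 CPM in the colon, and its colon effect exceeded the distal one by 2.48 ± 0.28 (adjusted p = 2.38e-05). Tmem151a went from 1.6, 1.02 and 1.66 to 11.6, 15.7 and 16 CPM (effect 3.33 ± 0.32). Slpi, a protease inhibitor of mucosal surfaces, went from 0.939, 1.94 and 0.801 to 6.78, 13.1 and 10.4 CPM (effect 3.05 ± 0.47), and its other 3 effects lay between -0.70 and 0.39, all uncalled.

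Some genes that rose in the colon are abundant in the small intestine. Ces2e, an esterase of the endoplasmic reticulum with close relatives whose reads may be shared, was 1238, 1646 and 1435 CPM in proximal controls and 1401, 1395 and 1403 with metformin. In the colon it rose from 112, 118 and 102 to 368, 394 and 418 CPM (effect 1.83 ± 0.16, adjusted p = 2.33e-08). Nat8f5, an acetyltransferase-family gene, was at 0, 0 and 0.298 CPM in colon controls and 4.65, 4.26 and 4.92 with metformin. In 2 colon controls it held no count, so its fitted effect there depends on the prior count and is no bound. Prap1, a proline-rich secreted gut protein, went from 0.15, 0.284 and 0.13 to 1.06, 0.617 and 1.4 CPM in the colon against 705, 785 and 864 CPM in proximal controls. Its difference between segments (adjusted p = 0.0142) was lost without 3 of the colon libraries in turn (up to 0.0946) and with the block within each segment (0.054). As a list, 4 of 12 proximal small intestine markers were called higher in the colon, and their mean there ran from -1.68 to -0.377 in controls and from -1.26 to 0.894 with metformin, overlapping ranges. Apoa4, the chylomicron protein of that list, read 0.0751, 0 and 1.43 CPM in colon controls and 6.13, 0.0796 and 19.6 with metformin, and its colon call was lost without colon control replicate 1 or metformin replicate 3. The part of small intestinal cells or tissue in these results was not tested.

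The largest fall in the colon among the named genes was that of Slc37a2, a sugar phosphate carrier. Colon controls held 381, 329 and 429.5 CPM and metformin libraries 36, 22.6 and 55.6, an effect of -3.32 ± 0.49 (adjusted p = 6.55e-05) that stayed called in all 24 fits without 1 library. In the other segments levels were at or below 5.52 CPM in every library and groups overlapped. The difference between segments (adjusted p = 0.00781) rests on those low levels and was lost without colon metformin replicate 2 (adjusted p = 0.0504). Slc3a1, the partner protein of the kidney and gut cystine carrier, fell in the colon from 2.5, 9.23 and 4.86 to 1.34, 0.418 and 0.768 CPM (effect -2.72 ± 0.49), while its proximal libraries stayed at 407, 491 and 556 and 527, 481 and 455 CPM. Its test for any difference was lost without colon control replicate 2 (adjusted p = 0.0611) or colon metformin replicate 2 (adjusted p = 0.0713). Slc10a2, the bile salt carrier of the ileum, was 803, 1653 and 1363 CPM in distal controls and 1019, 1069 and 1471 with metformin, and 3.74, 6.08 and 9.3 against 0.578, 1.59 and 1.14 in the colon (effect -2.51 ± 0.48, adjusted p = 4.47e-04). Its difference between segments was lost in 4 of 24 fits without 1 library (up to 0.119) and with the block within each segment (0.0839). Over the 9 distal small intestine markers, of which Slc10a2 is one, 3 fell in the colon and the mean there was 0.644 to 0.820 in controls and -0.223 to 0.428 with metformin; the part of small intestinal tissue in these falls was not tested.

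Efhd1, a calcium-binding mitochondrial protein, was called higher throughout the small intestine and was not called in the colon. The proximal call was lost in 3 of 24 fits without 1 library (adjusted p up to 0.139). It rose from 0.32, 1.25 and 1.01 to 6.2, 6.35 and 7.91 CPM in the middle segment (effect 2.98 ± 0.48, adjusted p = 0.00138), with effects of 2.51 ± 0.51 in the proximal and 2.51 ± 0.48 in the distal segment. In the colon 1.46, 1.42 and 1.4 and 1.32, 1.33 and 1.48 CPM overlapped. The test for any difference (adjusted p = 0.0206) was lost without 5 of the colon libraries in turn, up to 0.0842. Of 30 proliferation genes, 9 rose in the colon and none was called elsewhere, where edgeR gave 0, 2 and 1 at an unadjusted p under 0.05 and DESeq2 called 0. Without colon control replicate 3 or metformin replicate 2 the colon count was 6. The effect differed at 4 (13.3%): Ccne1, Ccne2, Pcna and Tyms. Ccne2, a cyclin of the start of DNA replication, rose from 2.35, 2.82 and 1.88 to 4.07, 6.43 and 4.84 CPM, and Pcna, the replication clamp, from 34.9, 36.6 and 34.7 to 52.9, 69 and 52.9. The effect in the colon exceeded that in the middle segment by 1.74 ± 0.31 for Ccne2 and 0.71 ± 0.13 for Pcna (adjusted p = 0.00135 and 0.00153). Crypt stem cell markers averaged lower without overlap in the middle (4.84 to 5.01 in controls against 4.31 to 4.81), the distal (4.87 to 5.35 against 4.29 to 4.57) and the colon (3.58 to 3.78 against 3.29 to 3.45). Of these 10 genes 7 were called lower in the distal segment, or 2 without distal metformin replicate 3, and 2 in the colon (Axin2 and Sox9), or 0 without colon metformin replicate 2.

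The distal small intestine stood apart at 19 genes, glutathione transferases among them. The count was 8 with the smooth muscle score as a covariate (7 shared), 11 without distal metformin replicate 3 and 42 in DESeq2 (17 shared). Gsta1, which conjugates glutathione to toxic compounds, declined along the gut in controls, from 124, 114 and 129 CPM in the proximal segment to 19.2, 20.1 and 16.6 in the distal. With metformin the distal level was 103, 118 and 157 CPM, close to the proximal one of 165, 135 and 131. The distal effect was 2.76 ± 0.20 or 6.78-fold (adjusted p = 1.81e-09), against 0.24 ± 0.19, 0.69 ± 0.20 and 0.91 ± 0.20 in the proximal, middle and colon. The distal minus proximal difference was 2.53 ± 0.28 (adjusted p = 9.99e-06). Gsta2 read 2.36, 2.58 and 2.25 CPM in distal controls and 11.3, 14.7 and 18.4 with metformin (effect 2.63 ± 0.25). The pair are near-identical copies with further relatives, so the split of reads between them is uncertain and they do not count as independent.

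Tubb2a, a beta tubulin, rose from 19, 39 and 38.4 to 129, 117 and 196 CPM in the distal segment (effect 2.20 ± 0.21) and was -0.37 ± 0.21 and uncalled in the proximal one. Its relative Tubb2b went from 9.63, 11 and 11 to 24.4, 20.03 and 37.1 CPM (effect 1.37 ± 0.14), with all other effects between -0.15 and 0.18. Zfr2, an RNA-binding zinc finger protein, went from 3.25, 3.36 and 5.05 to 14.4, 17 and 24.3 CPM (effect 2.26 ± 0.22). Por, the reductase that feeds electrons to cytochrome P450 enzymes, rose from 70.3, 122 and 129 to 249, 370.3 and 351 CPM, and its distal effect of 1.59 ± 0.18 exceeded the proximal by 1.46 ± 0.26 (adjusted p = 0.00395). Srf, the transcription factor of actin genes, and Zyx, a protein of focal adhesions, rose in the distal segment by 0.66 ± 0.10 and 1.01 ± 0.13, in the segment where 14 of 20 smooth muscle markers fell; the part of muscle in these results was not tested. Por, Srf and Zyx, like Tubb2b, were chosen after their values were seen. Zyx lost its standing apart in 11 of 24 fits without 1 library, Zfr2 in 5 and Srf without distal metformin replicate 3.

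At 35 genes the differing effects were called in opposite directions, or at 11 (10 shared) with the smooth muscle score as a covariate. Cyp2c55, a cytochrome P450 of the colon, fell in the small intestine and rose in the colon. Its proximal level went from 90.6, 92.1 and 51.4 to 19.3, 27 and 22.9 CPM and its middle level from 36.1, 44.8 and 45.1 to 8.6, 10.9 and 11.7. In the colon it went from 275, 314 and 302 to 912, 827 and 789 CPM. The effects were -1.76 ± 0.35, -2.01 ± 0.35, -1.77 ± 0.35 and 1.50 ± 0.34, all called, and the colon minus middle difference was 3.51 ± 0.49 (adjusted p = 1.33e-04). The proximal call was lost in 4 of 24 fits without 1 library (adjusted p up to 0.0896). The distal groups overlapped (10.8, 21.6 and 66.7 against 9.94, 11.7 and 7.28 CPM), and that call was lost without distal control replicate 3 (adjusted p = 0.0568). The reversal between the middle segment and the colon held in all 24 fits. Cyp2c genes are a family of close relatives whose reads may be split.

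Cyp3a11, the main drug-metabolising P450 of the mouse gut, showed a fall limited by calls to the distal segment. It went there from 4.11, 17 and 50.8 to 1.43, 1.47 and 1.04 CPM (effect -4.17 ± 0.70, adjusted p = 3.60e-04), where the controls themselves spread widely. Proximal libraries held 2106, 2579.9 and 1739 CPM in controls and 1229, 1584 and 1599.6 with metformin, not overlapping and not called (effect -0.54 ± 0.57). In the colon 2 controls held no count, and the colon effect was not called. Between the 4 segments the effect on Cyp3a11 differed (adjusted p = 0.00388 by edgeR's test). Of 27 cytochrome P450 genes, 3 rose and 7 fell in the distal segment (5 called with the smooth muscle score as a covariate), 3 rose and 1 fell in the colon, 1 fell in each of the other segments, and the effect differed at 6 (22.2%). Over all genes tested it differed at 4.03%. The colon counts are near the shares of all genes there, 9.78% higher and 4.31% lower.

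The growth factors amphiregulin and epiregulin, ligands of the EGF receptor that drive epithelial repair, also reversed. Areg fell in the proximal segment from 9.53, 10.2 and 7.74 to 4.54, 3.69 and 3.53 CPM (effect -1.22 ± 0.26, adjusted p = 0.0212). It rose in the distal segment from 9.33, 9.39 and 10.3 to 46.5, 27.1 and 39.6 CPM (effect 1.96 ± 0.25) and in the colon from 17.3, 20.2 and 12.5 to 42.9, 31.6 and 30.8 CPM (effect 1.08 ± 0.25). The distal minus proximal difference was 3.19 ± 0.36 (adjusted p = 1.59e-05), although the proximal call was lost in 5 of 24 fits (up to 0.139). Ereg fell in the proximal segment from 8.93, 6.87 and 6.99 to 3.85, 3.08 and 3.9 CPM and rose in the distal from 37.3, 35.2 and 34.2 to 68.4, 64 and 66.7, effects of -1.07 ± 0.19 and 0.90 ± 0.18 that stayed called in all 24 fits. In the colon Ereg overlapped, with an effect of -0.20 ± 0.18.

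Tnfrsf21, the death receptor DR6, fell in the proximal segment (-0.83 ± 0.19) and rose in the distal (0.78 ± 0.19), a difference of 1.61 ± 0.27 (adjusted p = 0.00229), with at least 1 of these calls lost in 7 of 24 fits. Trpv3, a warmth-gated cation channel, rose in the distal segment from 2.25, 4.54 and 3.68 to 9.76, 7.14 and 11.3 CPM and fell in the colon from 69.3, 71.1 and 66.5 to 37.6, 38.9 and 42.7. Its colon minus distal difference was -2.23 ± 0.35 (adjusted p = 5.42e-04), and the colon call alone (adjusted p = 0.0256) was lost without any of the 6 colon libraries. Rab19, a small GTPase of vesicle traffic, did the reverse, with effects of -0.77 ± 0.21 in the distal segment and 0.90 ± 0.21 in the colon; the distal call was lost in 3 of 24 fits (up to 0.112). Stk40, a kinase-like protein, had tight replicates: 60.9, 57.3 and 57.5 CPM in middle controls against 44.9, 43.9 and 44.6 with metformin, and 65.7, 62.7 and 61.8 against 102, 115 and 91.2 in the colon. The middle call was lost without middle control replicate 1 (adjusted p = 0.0716). Its colon minus middle difference of 1.10 ± 0.11 had an adjusted p of 1.64e-06. Of the 35 reversals, 22 were between the distal segment and the colon.

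Few genes were called the same way along the whole gut, and lysosome genes were among them. Of 25 measured lysosome genes, 6 rose in the proximal segment, 12 in the middle, 14 in the distal and 16 in the colon, and none fell. With the smooth muscle score as a covariate 4, 12, 9 and 15 were called. Medians were 0.26, 0.33, 0.33 and 0.41, and the effect differed at 2, Npl and Atp6v0d1 (8%, beside 4.03% of all genes tested). The list counts Npl, which is an enzyme of the cytosol and not of the lysosome. Npl is also 1 of the 6 proximal calls, and was called in the middle and distal segments too. Many lysosome promoters are known to carry the E-box letters CACGTG, which the factors TFEB and TFE3 bind. The Lamp1 window, from the same table and with the matches in capitals, shows 4.
Lamp1, chr8:13158911-13159210, plus strand: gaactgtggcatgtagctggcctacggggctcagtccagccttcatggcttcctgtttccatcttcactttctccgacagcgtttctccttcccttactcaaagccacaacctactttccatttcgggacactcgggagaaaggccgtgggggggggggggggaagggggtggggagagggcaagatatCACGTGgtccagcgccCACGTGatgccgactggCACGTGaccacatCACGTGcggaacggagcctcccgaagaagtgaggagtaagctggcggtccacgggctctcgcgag
Of the 19 lysosome windows found, 10 held CACGTG (52.6%), against 10.4% of the windows of all genes tested and 7.15% of all windows. The longer form TCACGTGA, which contains the E-box, was in 5 of 19 (26.3%), against 1.77% of the windows of all genes tested. Of the 18 windows found for genes higher in all 4 segments, 5 held CACGTG (27.8%). Lamp1 had the most matches of these, Ctsl had 1, and Ctsz and Fnip2 had 0. Only a window that holds the letters was shown, so a match in it was fixed by the choice. Lysosome promoters are already known to carry them, so the share in that list is no independent evidence. The letters describe the windows and show no binding.

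Lamp1, a lysosomal membrane protein, was 556, 671 and 594 CPM in proximal controls and 922, 868 and 949 with metformin. The colon had 304, 332 and 309 against 455, 489 and 460.1 CPM. Groups were separate in all 4 segments, and the effects were 0.59 ± 0.11, 0.58 ± 0.11, 0.57 ± 0.11 and 0.57 ± 0.11. The proximal call was lost without proximal control replicate 1 (adjusted p = 0.0542) and the middle call without middle control replicate 1 (0.063). The colon minus proximal difference was -0.02 ± 0.15, which does not show that the effects were equal. Ctsl and Ctsz, lysosomal proteases, had effects of 0.70 ± 0.12, 0.79 ± 0.12, 1.14 ± 0.12 and 0.63 ± 0.12 for Ctsl and 0.76 ± 0.10, 0.73 ± 0.10, 1.12 ± 0.10 and 1.00 ± 0.10 for Ctsz, called in all 4 segments in all 24 fits. Ctsz went from 208, 191 and 219 to 362, 343 and 345 CPM in the proximal segment and from 82.7, 85.8 and 84.4 to 162, 179 and 164 in the colon.

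Fnip2, a partner of folliculin in lysosomal nutrient sensing, rose by 0.89 ± 0.19, 1.23 ± 0.19, 1.06 ± 0.19 and 1.12 ± 0.18. Its proximal call was lost in 5 of 24 fits. Atp6v0d1, a subunit of the proton pump that acidifies lysosomes, was a lysosome gene with a gradient: 0.13 ± 0.07, 0.33 ± 0.07, 0.58 ± 0.07 and 0.67 ± 0.07, a slope of 0.19 ± 0.03 (adjusted p = 0.00113). Acsl3, which activates fatty acids, rose in all 4 segments with effects between 0.82 and 1.49, but at least 1 call was lost in 16 of 24 fits. Hspa12a, a distant relative of the HSP70 chaperones, was the gene called lower throughout. Its middle level went from 81.9, 87.7 and 100.2 to 32.1, 45.5 and 17.6 CPM, its effects were -1.50 ± 0.33, -1.50 ± 0.32, -1.02 ± 0.32 and -1.23 ± 0.34, and at least 1 call was lost in 18 of 24 fits. With the smooth muscle score as a covariate, 8 genes were called the same way in all 4 segments in place of 27.

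Slc34a2, the phosphate carrier of the gut, had lower values with metformin in every segment. It went from 116, 77 and 154 to 47.3, 40.3 and 22.4 CPM in the proximal segment and from 47.8, 23.1 and 33.1 to 3.95, 4.26 and 5.02 in the colon, with no overlap in any segment. Its effects were -1.65 ± 0.36, -1.15 ± 0.36, -1.53 ± 0.36 and -2.97 ± 0.38, all called but the middle one (adjusted p = 0.149), and the test for any difference gave 0.138. The proximal call was lost in 5 of 24 fits without 1 library (up to 0.174) and with the smooth muscle score or the block within each segment. Irf7, a factor of the interferon response, and Dusp5, a phosphatase that follows ERK signalling, rose in the last 2 segments. Irf7 went from 46.2, 111 and 92 to 180.3, 254 and 272 CPM in the distal segment (effect 1.50 ± 0.23) and had a colon effect of 1.16 ± 0.23, against 0.13 ± 0.23 and 0.08 ± 0.23 further up. Dusp5 had effects of 0.36 ± 0.23, 0.27 ± 0.23, 1.62 ± 0.23 and 1.39 ± 0.23. The adjusted p for any difference was 0.0106 for Irf7 and 0.0124 for Dusp5. Over 42 interferon-induced genes, none was called in the proximal or middle segment, 4 rose in the distal and 12 in the colon. In the proximal segment 6 had an unadjusted p under 0.05 by edgeR, and DESeq2 called 0. The effect differed at 2, Irf7 and Usp18 (4.76%), close to the 4.03% of all genes tested. For this test edgeR gave 10 at an unadjusted p under 0.05, and DESeq2 called 7. The trend was called upward at 6 of the 42, beside 3.4% of all genes, and medians were -0.35, -0.17, 0.10 and 0.46. With the smooth muscle score as a covariate 1 distal call was left, and 2 without distal metformin replicate 3, and in the colon 7 were called with that covariate.

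Other lists held few differences between segments. Over all genes tested, 7.07% rose and 3.61% fell in the distal segment, and 9.78% rose and 4.31% fell in the colon. The small counts below are to be read beside these shares. Among the transporters that carry metformin and thiamine, 10 measured, 2 rose in the distal segment (Slc19a2 and Slc19a3), Slc22a5 rose and Slc22a3 fell in the colon, and the effect differed at 0 by edgeR (1 had an unadjusted p under 0.05) and at 0 in DESeq2. Of 13 gut hormone genes, 3 fell in the colon (Chga, Chgb and Gcg), of which 1 was left without colon metformin replicate 2, and none was called elsewhere by edgeR. DESeq2 called 6 in the colon and 1 in the distal segment. The 12 enteroendocrine markers, which include Chga and Chgb, averaged lower without overlap in the colon (2.47 to 2.68 in controls against 1.81 to 2.37). Of these 3 were called lower there (Chga, Chgb and Scg3), or 1 without colon metformin replicate 2. The part of these cells in the hormone results was not tested. The effect on gut hormone genes differed at 1, Chgb (7.69%), a call lost without colon metformin replicate 2, without distal metformin replicate 3, with the smooth muscle score and with the block within each segment. Of 16 brush border hydrolase genes 4 rose and 1 fell in the colon (2 called without colon control replicate 3) and 1 fell in the distal segment, and edgeR called a difference between segments at 0, where 4 had an unadjusted p under 0.05 and DESeq2 called 4. Cholesterol synthesis and uptake genes rose in the colon at 7 of 26 and were called nowhere else, and the effect differed at 3 (11.5%). Without colon control replicate 3 or metformin replicate 2, 3 were called in the colon. Amino acid and peptide transporter genes fell in the colon at 6 of 22, with 1 higher (4 called without colon metformin replicate 2), and 3 were called in the distal segment (Slc36a4, Slc3a2 and Slc6a14). The effect differed at 1, Slc3a1 (4.55%, near the 4.03% of all genes tested), while 10 had an unadjusted p under 0.05 and DESeq2 called 6.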

How the data were processed

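RNA-seq was measured on total RNA, prepared with a stranded mRNA kit per the labels. The values are raw read counts per gene symbol, deposited by the authors in 1 table for each segment. FastQC, Trimmomatic, HISAT2 and StringTie, with the builds mm10 and GRCm39, stand in the submitters' processing notes; which build these tables used, the annotation and the strand setting of the counting are not given in the sources used here. The tables held 45777 symbols each, and 45751 were joined by symbol after 50 that were not in all 4 tables were dropped.

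Counts were fitted in edgeR 4.0.16 (R 4.3.3) with filterByExpr, TMM over 36 libraries (control, metformin and imeglimin, 12 groups of 3), 24 residual degrees of freedom and the quasi-likelihood F test. Calls are at a Benjamini-Hochberg adjusted p under 0.05 over all 20053 genes. Levels are CPM scaled by TMM. DESeq2 1.42.0, other scalings, filters, blocks and leaving out libraries were alternatives, and the scripts were tested on simulated data. Nothing in the labels says that libraries of a group came from separate animals, so the p-values reflect library-to-library spread, which may be technical. The closest replicate pair still differed beyond sampling noise (chi-square per gene 13.36).

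The labels give each library a batch number equal to its replicate number, which ties libraries by batch and not by animal. Deviations of same-numbered libraries correlated on average at 0.00573, -0.122, -0.156 and 0.0933 within the segments from proximal to colon, and at 0.0775 between segments of 1 treatment.

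The members and lists were chosen with earlier results of these data known. Genes were named by rule: called for any difference, at least 1 CPM in a group of each segment and 5 CPM in some group, without overlap where the effect was largest, then ranked by p, by distance from the other segments, by slope, by opposing effect and, for genes called in all segments, by smallest effect, with the 2 lowest p of each list and a set of known metformin, absorption and position genes. Npl, Ftl1, Asns, Chac1, Ddit3, Mars, Tubb2b, Srf, Zyx, Por and list members named beside small counts were added after their values were seen. Promoter windows are RefSeq sequences matched by symbol.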

Additional observations from a re-analysis of the deposited data

Results flagged for a closer look

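The metformin effect differed between the 4 segments at 809 genes by the test of the difference itself, edgeR's quasi-likelihood F test with Benjamini-Hochberg adjustment. Of these, 62 that were described above with their values are listed here. Further genes named above as differing, such as Fth1, Ccne1, Tyms, Usp18 and Chgb, are not in this list. The sizes given here are the gap between the largest and the smallest of a gene's 4 effects, on the log2 scale, and no group of 3 libraries was tested for a single outlying one.

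The colon effect exceeded the proximal effect by 2.82 for Atf5, 1.37 for Gars, 3.51 for Chac1, 2.19 for Gdf15, 1.35 for Uqcrq, 2.62 for Tfrc, 0.98 for Ftl1, 2.73 for Rtn4r, 1.74 for Gadd45a, 3.05 for Fyb2, 2.41 for Prap1, 1.87 for Ces2e, 3.55 for Tmem151a, 3.75 for Slpi, 1.64 for Slc39a4, 1.15 for Srxn1, 0.64 for Txnrd1 and 0.54 for Atp6v0d1. It exceeded the middle effect by 3.73 for Mthfd2, 3.00 for Trib3, 1.96 for Aars, 2.56 for Asns, 0.85 for Ndufb10, 0.83 for Cox5b, 2.37 for Hkdc1, 4.93 for Nat8f5, 3.51 for Cyp2c55, 1.10 for Stk40, 1.74 for Ccne2, 0.71 for Pcna and 1.50 for Mars. Over the distal effect the excess of the colon was 2.41 for Dclre1a, 2.48 for Slc43a3, 6.78 for Cyp3a11, 1.67 for Rab19 and 1.61 for Mt1. For Nat8f5 and Cyp3a11 2 colon controls held no count, so these gaps depend on the prior count and are no bound.

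Distal effects exceeded proximal ones by 2.55 for Vldlr, 1.36 for Hk2, 2.53 for Gsta1, 2.30 for Gsta2, 2.57 for Tubb2a, 1.81 for Zfr2, 3.19 for Areg, 1.97 for Ereg and 1.61 for Tnfrsf21. Distal effects exceeded middle ones by 1.49 for Ddit3, 1.00 for Slc2a1, 1.43 for Irf7 and 1.35 for Dusp5. Distal effects exceeded those in the colon by 4.01 for Slc16a3, 3.01 for Slc3a1 and 2.23 for Trpv3. Middle effects exceeded those in the colon by 2.79 for Slc46a1, 3.74 for Slc37a2 and 3.03 for Efhd1. Proximal effects exceeded those in the colon by 3.49 for Npl, 1.61 for Fam189a2, 1.72 for Clca3a1, 1.63 for Ppfia3, 2.83 for Kif27, 2.41 for Ankrd37 and 2.88 for Slc10a2.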

How the results depend on the processing

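None of the 62 genes listed above with their gaps changed direction under any alternative. Other genes named as differing are outside these counts, among them Chgb, whose call was lost in several alternatives. All 62 were still called with RLE scaling and with DESeq2, 61 with TMM within each segment and 57 with the block within each segment. Medians over all genes stayed within 0.07 of 0. DESeq2 called more genes: 1484 for any difference (792 shared with edgeR), 515 in the proximal and 365 in the middle segment, 3, 1, 42 and 287 standing apart from proximal to colon, 47 called the same way in all 4 segments and 74 in opposite directions. Without a filter beyond 1 read these were 105 in the proximal and 113 in the middle segment, 15 the same way and 23 in opposite directions. A fit of the 24 control and metformin libraries alone called 125 and 119 genes in the proximal and middle segments. For any difference it called 546 genes in place of 809, with 508 shared. The trend was called there at 775 genes, and 13 stood apart in the distal segment. With the smooth muscle score as a covariate 23 were called in the proximal and 513 in the distal segment, 8 stood apart in the distal, 8 went the same way and 11 in opposite directions, while 703 of 738 calls for any difference were shared. A covariate for B and plasma cells gave 30 standing apart in the distal segment.

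The batch number as 1 block gave 803 calls for any difference and 989 for the trend, and as a block shared by treatment and number 844. The block within each segment gave 457 for any difference (440 of them shared), 625 for the trend, 125 in the proximal segment, 102 standing apart in the colon and 23 in opposite directions; it and the single block changed none of the other such counts by over 1.5 times, and ended the call for any difference of Gdf15, and within segments also that of Chac1, Hk2, Prap1 and Slc10a2.

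Leaving out 1 library at a time gave 471 (colon metformin replicate 2) to 924 calls for any difference and 567 (colon metformin replicate 2) to 1197 for the trend. The ranges were 43 (proximal metformin replicate 3) to 412 in the proximal, 75 (middle control replicate 1) to 289 in the middle, 831 (distal metformin replicate 3) to 2323 in the distal segment and 1745 (colon metformin replicate 2) to 3148 in the colon. Standing apart numbered 0 to 1, 0 to 1, 11 to 33 and 89 to 192 from proximal to colon. The same way in all segments were 11 to 37 and in opposite directions 23 to 45. Of 5200 list medians recomputed, 42 moved by at least the median standard error of the effects of single members. That yardstick is for 1 gene and is not the error of a list median, so smaller moves were not counted.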
